A study of Mus musculus with 18 samples.

Results

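*Suox*, the gene of sulfite oxidase, was 3.58-fold higher in murine nerve sheath tumor lines that lacked *Nf1* and *Cdkn2a* than in lines that lacked *Nf1* and *p53*, while *Cth*, the gene of the last enzyme that makes cysteine, was 3.20-fold lower. The mean *Suox* level was 17.7 ± 0.342 CPM (counts scaled to a library of 1000000; SD, n = 3 lines) in Nf1/p53 dKO lines and 63.5 ± 6.32 CPM in Nf1/Cdkn2a dKO lines. The mean *Cth* level was 35.2 ± 10.6 CPM in the former and 11.0 ± 3.69 CPM in the latter. The description covers 10 genes of cysteine sulfur metabolism, namely *Suox*, *Cbs*, *Cth*, *Cdo1*, *Csad*, *Mpst*, *Ethe1*, *Sqor*, *Tst* and *Slc7a11*, of 35275 genes in the count table. They were chosen by name from what is known of the pathway, and with their difference between the genotypes in view, so that difference is a description here and carries no test. Of the 10 genes, 9 were found by name and *Sqor* was found by its gene identifier, because the table lists it under an older symbol.

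Cells import cystine, the oxidized dimer of cysteine, through system xc-, an exchanger whose transport subunit is encoded by *Slc7a11*, and they can also make cysteine from homocysteine by transsulfuration, in which *Cbs* and *Cth* encode the enzymes. Surplus cysteine is oxidized by the product of *Cdo1* to cysteine sulfinate, which is decarboxylated on the way to taurine (*Csad*) or releases sulfite. A parallel route passes the sulfur of cysteine into hydrogen sulfide and persulfides through the sulfurtransferases encoded by *Mpst* and *Tst*, and mitochondria oxidize sulfide through the products of *Sqor* and *Ethe1*. The routes meet at sulfite, a toxic anion that sulfite oxidase, a molybdenum enzyme of the mitochondrial intermembrane space, turns into sulfate. Loss of sulfite oxidase or of its cofactor causes a severe neurological disease in infants.

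The data are RNA sequencing counts of 18 cultures from 6 cell lines. Adenovirus carrying Cas9 under the CMV promoter and guides against *Nf1* with *p53*, or *Nf1* with *Cdkn2a*, was injected into the sciatic nerve of wild-type mice of the 129 Sv/Jae strain, and each line was grown from 1 of the resulting malignant peripheral nerve sheath tumors (MPNSTs). There were 3 lines with the genotype labelled Nf1-p53_DKO (Nf1/p53 dKO) and 3 with the genotype labelled Nf1-Cdkn2a_DKO (Nf1/Cdkn2a dKO), with 3 untreated cultures of each line, so both genotypes lack *Nf1* and neither is a normal control. All lines had been passaged in serum-containing medium, and no age of the mice is given in the sources used here. Cultures of 1 line come from 1 tumor, so the counts of its cultures were summed and lines served as replicates between genotypes (n = 3 against 3).

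Library totals ran from 19560535 to 28312207 counts (median 23149777). *Trp53* was at 94.1, 67.5 and 58.7 CPM in Nf1/p53 dKO lines 1 to 3 and at 247, 246 and 185 CPM in Nf1/Cdkn2a dKO lines (log2 fold change 1.62, adjusted p = 0.0361, edgeR). *Nf1* and *Cdkn2a* were counted in all lines, *Cdkn2a* at 42.9 to 363 CPM in Nf1/p53 dKO and 169 to 392 CPM in Nf1/Cdkn2a dKO. A count over the whole gene does not read the edited site, so it does not check the labels for *Trp53*, *Nf1* or *Cdkn2a*. The summed level of 6 mesenchymal markers was 6712 to 15635 CPM in Nf1/p53 dKO and 9246 to 16277 CPM in Nf1/Cdkn2a dKO, and the labels give the cell type as mesenchymal. Of 5 Schwann cell markers, *Sox10* was under 1 CPM in every line, and the sum was 2.82 to 68.2 CPM and 1.22 to 2.49 CPM, the highest values coming from *Ngfr*. Leukocyte markers (4 genes) summed to 3.68 to 7.55 and 6.497 to 8.02 CPM and endothelial markers (3 genes) to 0.830 to 1.46 and 0.563 to 1.86 CPM. Epithelial markers (4 genes) summed to 2.67 to 739 and 8.26 to 611 CPM, with *Krt8* at 0.484 to 601 CPM and *Krt18* at 0.747 to 199 CPM over the 6 lines. The part of these differences in the results below was not tested.

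All 10 genes passed the filter on low counts. CPM were taken over each line's or culture's total after TMM scaling, and a gene was called where the Benjamini-Hochberg adjusted p over all genes tested was under 0.05. Between genotypes, 1 of the 10 genes was called, *Suox*, against 274 of 15207 genes or 1.8% in the whole table (0.638% called higher and 1.16% called lower in Nf1/Cdkn2a dKO); nothing is read from that count, since the genes were selected on this contrast. *Suox* was not called without Nf1/Cdkn2a dKO line 1 or without line 2, where 0 and 2 genes of the whole table were called. The log2 fold change was above 0 for 5 genes and below 0 for 5, with a median of -0.07, beside -0.02 over all genes. The 3 lines of one genotype lay apart from the 3 of the other for *Suox*, *Cth* and *Tst*, that is for 3 of 10 genes, as they did for 31.4% of all genes. For *Suox* and *Cth* all 9 cultures of each genotype lay apart as well. The share of all genes for which cultures did so was not computed. Cultures of a line are not independent, so nothing is read from this beyond the lines.

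**Figure D1:**
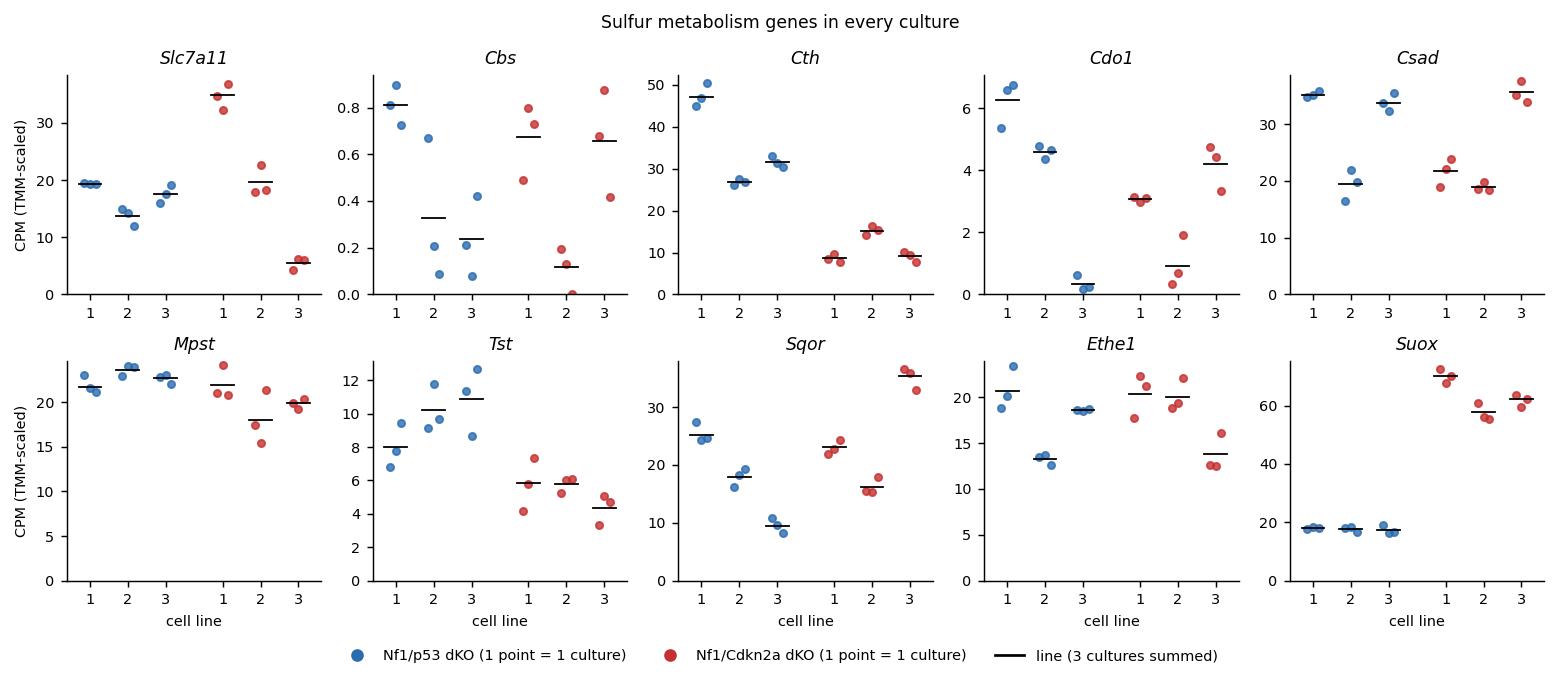
CPM (linear axis from 0) of the 10 genes in each of the 18 cultures (points) and in each line with its 3 cultures summed (black lines), for lines 1 to 3 of Nf1/p53 dKO (blue) and of Nf1/Cdkn2a dKO (red). *Suox* ran from 16.3 to 19.0 CPM over the Nf1/p53 dKO cultures and from 55.3 to 72.5 CPM over the Nf1/Cdkn2a dKO cultures, whereas *Slc7a11* was spread from 4.34 to 36.8 CPM within Nf1/Cdkn2a dKO.

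The genes were not chosen by differences between the 3 lines of 1 genotype, which could be tested over cultures. A call between genotypes is favored by a low spread of lines within them. The low spread of *Suox* within genotypes is therefore not independent of the choice. By edgeR's quasi-likelihood F test, 7 of the 10 genes differed between the Nf1/p53 dKO lines, where 73.2% of 14690 genes did, and 8 of 10 differed between the Nf1/Cdkn2a dKO lines, where 56.8% did. These tests measure the lines against the spread between cultures of a line, which may be technical. Most of the 10 genes thus differed between lines, as most genes of the table did.

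*Suox* lies on the minus strand at chr10:128669894-128674073 (GRCm38), and no annotated gene overlaps it. Its cultures stood at 17.9, 18.5 and 17.9 CPM in Nf1/p53 dKO line 1, at 18.02, 18.5 and 16.6 CPM in line 2 and at 19.0, 16.3 and 16.7 CPM in line 3. The cultures of Nf1/Cdkn2a dKO stood at 72.5, 67.7 and 70.1 CPM in line 1, at 60.9, 56.2 and 55.3 CPM in line 2 and at 63.8, 59.6 and 62.4 CPM in line 3. The lowest Nf1/Cdkn2a dKO culture was thus far above the highest Nf1/p53 dKO culture. The log2 fold change over lines was 1.84 (SE 0.14), and leaving out 1 line at a time gave 1.77 to 1.91.

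Within a genotype *Suox* varied little. The Nf1/p53 dKO lines, at 18.03, 17.8 and 17.4 CPM, did not pass the test of line differences (adjusted p = 0.784, edgeR), with 1.04-fold between the highest and the lowest line. The Nf1/Cdkn2a dKO lines, at 70.3, 57.8 and 62.2 CPM, did pass it (adjusted p = 0.00500, edgeR), with 1.22-fold between highest and lowest. In that genotype the cultures of line 1 lay above those of line 3, and those of lines 3 and 2 overlapped. On the log2 scale the SD between lines was 0.031 in Nf1/p53 dKO and 0.15 in Nf1/Cdkn2a dKO, the lowest of the 10 genes in the former. *Suox* was chosen with its genotype difference in view, so nothing further is read from this low spread.

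The promoter of *Suox* is shown because this gene had the largest difference of the 10, and that of *Slc7a11* because, of the 7 genes with a promoter window, it alone held matches to the C/EBP-ATF response element. Both are RefSeq sequences on GRCm38.p6 from 250 bases before to 50 bases after the start that RefSeq annotates, read 5′ to 3′ on the minus strand, at chr10:128673869-128674168 for *Suox* and chr3:50443564-50443863 for *Slc7a11*. Capitals mark matches to TTGCATCA on either strand.
Suox: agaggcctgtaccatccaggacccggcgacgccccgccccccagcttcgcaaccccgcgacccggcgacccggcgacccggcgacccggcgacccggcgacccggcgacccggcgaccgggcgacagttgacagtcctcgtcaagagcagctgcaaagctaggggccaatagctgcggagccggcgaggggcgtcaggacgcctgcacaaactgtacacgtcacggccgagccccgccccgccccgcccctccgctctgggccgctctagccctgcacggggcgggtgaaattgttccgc
Slc7a11: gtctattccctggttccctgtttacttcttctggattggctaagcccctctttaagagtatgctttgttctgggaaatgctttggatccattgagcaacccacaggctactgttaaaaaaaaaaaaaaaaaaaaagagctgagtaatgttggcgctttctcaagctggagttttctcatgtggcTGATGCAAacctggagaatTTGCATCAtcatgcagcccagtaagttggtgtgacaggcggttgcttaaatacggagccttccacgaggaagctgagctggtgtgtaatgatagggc
The matches in *Slc7a11* began 66 bases before the start on the opposite strand (position -66) and 47 bases before it on the gene's strand (position -47). TTGCATCA was present in 0.895% of 32851 promoter windows of this length. Windows were found for 7 of the 10 genes, 11 in all. The core of the antioxidant response element, TGACNNNGC, also searched on both strands, was present in 12.4% of all windows and, among these genes, in a window of *Mpst* (chr15:78406551-78406850) at position -12. Neither motif overlaps the other in these windows, and the *Suox* window held neither. A match of letters does not show that a factor binds there.

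Sulfide oxidation feeds sulfite oxidase in the mitochondrion. *Sqor* (chr2:122765237-122809569, plus strand), whose enzyme passes electrons from sulfide to ubiquinone, was at 25.1, 17.8 and 9.53 CPM in Nf1/p53 dKO lines 1 to 3 and at 23.1, 16.2 and 35.3 CPM in Nf1/Cdkn2a dKO lines 1 to 3. The genotypes overlapped, and the log2 fold change was 0.51 (SE 0.43), from 0.17 to 0.86 with 1 line left out. The lines themselves differed 2.64-fold in Nf1/p53 dKO (adjusted p = 5.4e-11, edgeR) and 2.18-fold in Nf1/Cdkn2a dKO (adjusted p = 3.8e-09, edgeR). The spread of *Sqor* thus lay between lines of the same genotype.

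*Ethe1* (chr7:24587543-24608925, plus strand) encodes the persulfide dioxygenase that releases sulfite. It was at 20.7, 13.2 and 18.6 CPM in Nf1/p53 dKO lines and at 20.4, 20.0 and 13.8 CPM in Nf1/Cdkn2a dKO lines, so each genotype had 1 low line. The log2 fold change was 0.05 (SE 0.26), from -0.11 to 0.21 with 1 line left out, and lines differed within Nf1/p53 dKO (adjusted p = 5.9e-05, edgeR) and within Nf1/Cdkn2a dKO (adjusted p = 0.00023, edgeR). *Ethe1* shares 99 exon bases with *Zfp575* on the opposite strand, and whether the counting used strand is not given in the sources used here; *Zfp575* had 736 counts over all libraries.

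*Tst* and *Mpst* encode paired sulfurtransferases, rhodanese and mercaptopyruvate sulfurtransferase, and lie head to head on chromosome 15 with 508 bases between them. *Tst* (chr15:78399556-78405907, minus strand) was at 7.99, 10.2 and 10.9 CPM in Nf1/p53 dKO lines and at 5.86, 5.77 and 4.38 CPM in Nf1/Cdkn2a dKO lines. The lines lay apart, although the cultures overlapped. The log2 fold change of *Tst* was -0.86 (SE 0.26), from -0.98 to -0.73 with 1 line left out, and its lines did not pass the test within either genotype (adjusted p = 0.0857 and 0.157, edgeR).

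*Mpst* (chr15:78406416-78414013, plus strand) was at 21.7, 23.6 and 22.7 CPM in Nf1/p53 dKO lines and at 21.9, 18.0004 and 19.96 CPM in Nf1/Cdkn2a dKO lines. Its genotypes overlapped, with a log2 fold change of -0.18 (SE 0.16), and its lines did not pass the test within Nf1/p53 dKO (adjusted p = 0.600, edgeR) or Nf1/Cdkn2a dKO (adjusted p = 0.0614, edgeR). Per kb of exon, *Tst* was 0.249, 0.293 and 0.325 times the level of *Mpst* in Nf1/p53 dKO lines and 0.181, 0.217 and 0.149 times in Nf1/Cdkn2a dKO lines. All 3 ratios were thus lower in Nf1/Cdkn2a dKO. Both genes were chosen with their difference between the genotypes in view, so nothing further is read from these ratios.

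**Figure D2:**
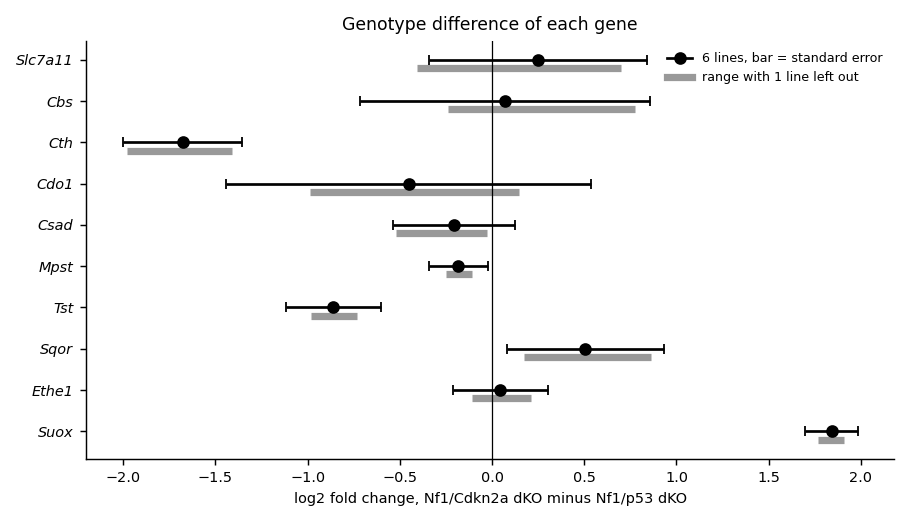
Log2 fold change of each gene between genotypes (Nf1/Cdkn2a dKO minus Nf1/p53 dKO) over 6 lines, with its standard error (black), and the range of the value with 1 line left out in turn (grey). *Suox* (1.84), *Cth* (-1.68) and *Tst* (-0.86) have the values farthest from 0, and the ranges of *Slc7a11*, *Cbs*, *Cdo1* and *Ethe1* cross 0.

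The transcript level of *Cdo1* varied widely between lines. *Cdo1*, on chromosome 18, encodes cysteine dioxygenase, which commits cysteine to oxidation. It was at 6.26, 4.60 and 0.346 CPM in Nf1/p53 dKO lines and at 3.08, 0.923 and 4.19 CPM in Nf1/Cdkn2a dKO lines, that is 25 counts in the lowest line and 486 in the highest. The highest line was 18.1-fold above the lowest in Nf1/p53 dKO (adjusted p = 4.1e-09, edgeR) and 4.54-fold in Nf1/Cdkn2a dKO (adjusted p = 5.6e-05, edgeR). Between genotypes the log2 fold change was -0.45 (SE 0.99), and it ran from -0.99 to 0.15 with 1 line left out, positive only without Nf1/p53 dKO line 1.

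*Csad* (chr15:102176999-102204724, minus strand) encodes cysteine sulfinate decarboxylase of the taurine branch. It was at 35.1, 19.4 and 33.8 CPM in Nf1/p53 dKO lines and at 21.8, 19.0 and 35.7 CPM in Nf1/Cdkn2a dKO lines. Each genotype held lines near 20 CPM and near 35 CPM, and the lines differed in both (adjusted p = 2.1e-08 and 2.0e-08, edgeR). The log2 fold change between genotypes was -0.21 (SE 0.33). *Csad* shares 278 exon bases with *Zfp740* on the opposite strand, which had 38675 counts over all libraries, so reads of that stretch may not be told apart.

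Of the transsulfuration genes, *Cth* (chr3:157894248-157925077, minus strand), which encodes cystathionine gamma-lyase, was readily counted and *Cbs* was not. The *Cth* cultures stood at 45.04, 46.8 and 50.3 CPM in Nf1/p53 dKO line 1, at 26.0, 27.7 and 26.7 CPM in line 2 and at 33.1, 31.3 and 30.3 CPM in line 3. Those of Nf1/Cdkn2a dKO stood at 8.48, 9.75 and 7.74 CPM in line 1, at 14.1, 16.3 and 15.4 CPM in line 2 and at 10.2, 9.34 and 7.65 CPM in line 3. Every Nf1/p53 dKO culture was therefore above every Nf1/Cdkn2a dKO culture.

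The log2 fold change of *Cth* was -1.68 (SE 0.32), from -1.98 to -1.41 with 1 line left out. Whereas the *Suox* lines passed the test of line differences only within Nf1/Cdkn2a dKO, the *Cth* lines passed it within each genotype. For *Cth*, line 1 was high in Nf1/p53 dKO (1.76-fold over the lowest, adjusted p = 5.7e-08, edgeR). Line 2 was high in Nf1/Cdkn2a dKO (1.77-fold, adjusted p = 3.7e-07, edgeR). The order of the genotypes was not altered by that spread.

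*Cbs* (chr17:31608894-31637238, minus strand), which encodes cystathionine beta-synthase, the entry enzyme of transsulfuration, had 63, 23 and 17 counts in Nf1/p53 dKO lines and 42, 8 and 42 counts in Nf1/Cdkn2a dKO lines. This corresponds to 0.812, 0.325 and 0.235 CPM and to 0.674, 0.115 and 0.657 CPM. In 1 culture, of Nf1/Cdkn2a dKO line 2, no read was counted, which allows up to 0.147 CPM (3 counts). The genotypes overlapped, with a log2 fold change of 0.07 (SE 0.79) that ran from -0.24 to 0.78 with 1 line left out, while the lines passed the test within Nf1/p53 dKO (adjusted p = 0.0402, edgeR) and within Nf1/Cdkn2a dKO (adjusted p = 0.0134, edgeR). Counting error alone is meant by that floor.

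*Slc7a11* (chr3:49892526-50443614, minus strand), whose promoter is printed above, was spread widely between the lines of Nf1/Cdkn2a dKO. In Nf1/p53 dKO its cultures stood at 19.4, 19.3 and 19.4 CPM in line 1, at 14.96, 14.2 and 11.9 CPM in line 2 and at 15.9, 17.6 and 19.1 CPM in line 3. In Nf1/Cdkn2a dKO they stood at 34.6, 32.3 and 36.8 CPM in line 1, at 17.98, 22.6 and 18.3 CPM in line 2 and at 4.34, 6.18 and 6.03 CPM in line 3. The highest and the lowest of all 6 lines were thus lines 1 and 3 of Nf1/Cdkn2a dKO.

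The lines of Nf1/Cdkn2a dKO differed 6.30-fold in *Slc7a11* (adjusted p = 1.8e-14, edgeR), and those of Nf1/p53 dKO 1.40-fold (adjusted p = 0.00215, edgeR). Between genotypes the log2 fold change was 0.25 (SE 0.59), and it turned to -0.41 without Nf1/Cdkn2a dKO line 1 and rose to 0.70 without line 3. No direction between genotypes can be given for this gene. Its partner subunit gene *Slc3a2*, the heavy chain of the exchanger, was at 194, 182 and 223 CPM in Nf1/Cdkn2a dKO lines 1 to 3, so line 3 was the lowest for *Slc7a11* and the highest for *Slc3a2*. This partner was named for its role after its values were seen.

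**Figure D3:**
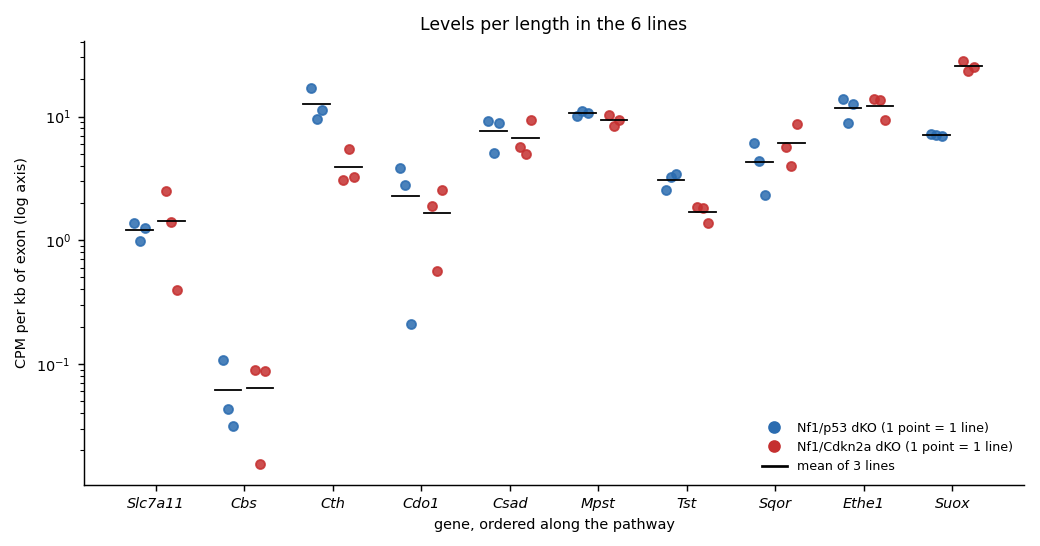
Level per length (CPM per kb of exon, log axis) of each gene in the 3 Nf1/p53 dKO lines (blue points) and the 3 Nf1/Cdkn2a dKO lines (red points), with the mean of each genotype (black). *Suox* was at 7.09 CPM per kb in Nf1/p53 dKO and 25.4 in Nf1/Cdkn2a dKO, and *Cbs* lay lowest in both, at 0.0611 and 0.0644.

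Levels of different genes were compared per kb of exon, over the union of annotated exons, which understates genes with long exons that are rarely used. In the Nf1/p53 dKO lines the mean order from the top was *Cth* (12.6 CPM per kb), *Ethe1* (11.8), *Mpst* (10.6), *Csad* (7.68), *Suox* (7.09), *Sqor* (4.29), *Tst* (3.06), *Cdo1* (2.27), *Slc7a11* (1.21) and *Cbs* (0.0611). In the Nf1/Cdkn2a dKO lines it was *Suox* (25.4), *Ethe1* (12.2), *Mpst* (9.32), *Csad* (6.66), *Sqor* (6.09), *Cth* (3.94), *Tst* (1.69), *Cdo1* (1.66), *Slc7a11* (1.44) and *Cbs* (0.0644). *Suox* was the fifth in the first order and led the second, *Cth* led the first and was the sixth in the second, and the other 8 genes kept their order among themselves. In the first order the lines of neighbors did not overlap from *Mpst* to *Csad*, from *Suox* to *Sqor* and from *Slc7a11* to *Cbs*, and in the second from *Suox* to *Ethe1*, from *Cth* to *Tst* and from *Slc7a11* to *Cbs*. All other neighbors overlapped and are not separated beyond the spread of their lines. *Suox* stood above every other gene of the 10 in each Nf1/Cdkn2a dKO line.

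The ratio of *Suox* to *Cth* per length puts the genes of cysteine synthesis and sulfite oxidation side by side within a line. It was 0.427, 0.741 and 0.615 in Nf1/p53 dKO lines 1 to 3 and 9.14, 4.24 and 7.63 in Nf1/Cdkn2a dKO lines 1 to 3. *Cth* thus exceeded *Suox* in every Nf1/p53 dKO line and *Suox* exceeded *Cth* in every Nf1/Cdkn2a dKO line. *Suox* and *Cth* had the highest and the lowest log2 fold change of the described genes (1.84 and -1.68). Those genes were chosen with their difference between the genotypes in view. The separation of this ratio between genotypes therefore follows from that choice, and nothing further is read from it. The transsulfuration pair was unequal throughout. Per length, *Cth* was at 156, 221 and 360 times the level of *Cbs* in Nf1/p53 dKO lines. In Nf1/Cdkn2a dKO lines it was at 34.2, 354 and 37.2 times. *Cbs* had 8 to 63 counts in a line, and the 354 rests on 8, so the spread of these ratios between lines is uncertain. Their size also depends on the union of annotated exons, which is 7485 bases for *Cbs* and 2791 bases for *Cth*.

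Sulfite oxidase needs the molybdenum cofactor, and 10 genes of cofactor synthesis and of other molybdenum enzymes were all tested. Only *Xdh*, the gene of xanthine oxidoreductase of purine breakdown, was called among them, and it was lower in Nf1/Cdkn2a dKO, opposite to *Suox*. It was at 23.9, 21.1 and 23.3 CPM in Nf1/p53 dKO lines and at 1.86, 2.05 and 2.71 CPM in Nf1/Cdkn2a dKO lines. The lines lay far apart, with a log2 fold change of -3.37 (SE 0.24, adjusted p = 0.0170, edgeR), from -3.54 to -3.25 with 1 line left out. The call of *Xdh* was lost without Nf1/Cdkn2a dKO line 1 and without line 2, where 0 and 2 genes of the whole table were called.

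The genes of the other molybdenum enzymes were not called. The aldehyde oxidase gene *Aox1* was at 13.0, 8.40 and 3.27 CPM in Nf1/p53 dKO lines and at 13.3, 9.84 and 8.66 CPM in Nf1/Cdkn2a dKO lines (log2 fold change 0.37, SE 0.50, adjusted p = 0.696, edgeR). The amidoxime reducing component gene *Marc2* was at 38.4, 42.0 and 24.2 CPM and at 45.6, 51.6 and 70.0 CPM, lines that lay apart without passing the test (log2 fold change 0.68, SE 0.26, adjusted p = 0.200, edgeR). Its relative *Marc1* was near the detection limit, at 0 to 0.142 CPM and 0.216 to 0.500 CPM (log2 fold change 1.97, SE 1.00, adjusted p = 0.294, edgeR), the highest of the list. Of the 10 genes, 7 lay above 0 and 3 below, with a median log2 fold change of 0.17.

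**Figure D4:**
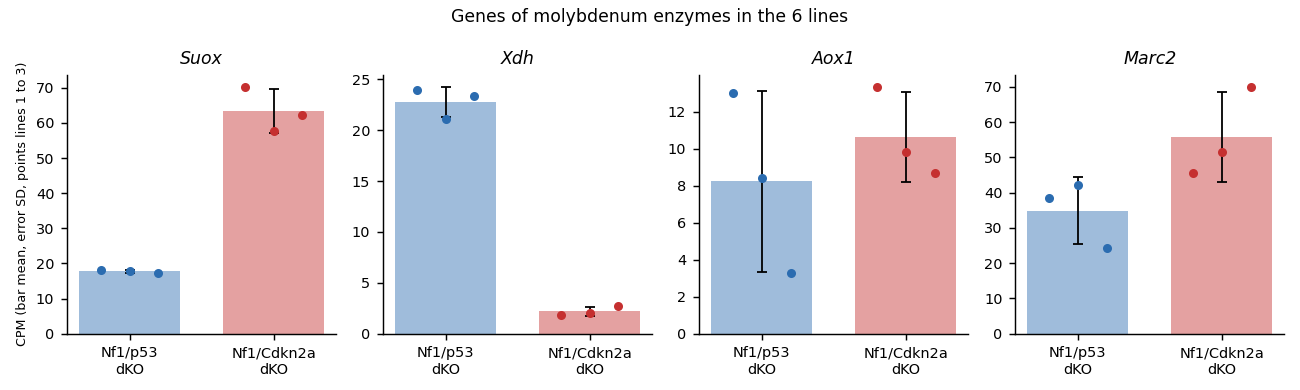
CPM (bars, mean of 3 lines from 0; error bars, SD; points, lines 1 to 3) of *Suox* and of the other molybdenum enzyme genes above 1 CPM, in Nf1/p53 dKO (blue) and Nf1/Cdkn2a dKO (red). *Xdh* fell from 22.8 to 2.20 CPM where *Suox* was at 17.7 and 63.5 CPM, and the points of *Aox1* overlapped.

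The surrounding pathways were read from 8 lists with 79 genes, of which 78 were in the table and 67 passed the filter on low counts. *Xdh* was the 1 gene called, lower, against 1.8% of all genes, and 16 of the 67 genes had an unadjusted p under 0.05, beside 3400 of the 15207 genes of the whole table. There were 29 genes above 0 and 38 below, and the median log2 fold change was -0.04. No other list held a called gene.

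Around the supply of cysteine, 12 of 15 genes were tested, 3 above and 9 below 0, with a median log2 fold change of -0.45 that moved to -0.18 without Nf1/p53 dKO line 2. *Ggt7* belongs to the gamma-glutamyltransferase family of glutathione breakdown. *Ggt7* was at 3.22, 11.9 and 13.2 CPM in Nf1/p53 dKO lines and at 0.930, 1.41 and 0.563 CPM in Nf1/Cdkn2a dKO lines (log2 fold change -3.28). *Ggt1* of the same family lay at the other end, at 0 to 0.116 CPM and 0.260 to 1.19 CPM (log2 fold change 3.49). Neither passed the test. In the methionine cycle, which supplies homocysteine, 8 of 11 genes were tested, with 2 above and 6 below 0 and a median of -0.12, from *Ahcyl2* at -0.93 to *Mat2a*, the S-adenosylmethionine synthetase gene, at 0.11.

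Around the use of cysteine and its products the medians were near 0. The 10 genes that use cysteine for glutathione and coenzyme A had 6 above and 4 below 0 and a median log2 fold change of 0.02, from *Gclc* at -0.58 to *Gss* at 0.45, the catalytic subunit of the first and the enzyme of the second step of glutathione synthesis. Of the 9 genes of taurine and cysteine sulfinate, 5 were tested (3 above, 2 below, median 0.17). *Got1*, the cytosolic aspartate aminotransferase, was the highest of them at 0.62, with 101 ± 13.1 CPM in Nf1/p53 dKO and 156 ± 14.4 CPM in Nf1/Cdkn2a dKO (SD, n = 3 lines; adjusted p = 0.0848, edgeR). *Fmo1*, whose product makes taurine from hypotaurine, was the lowest at -4.14, with 1.07, 1.74 and 7.75 CPM against 0.0802, 0.0144 and 0.500 CPM, and it ran from -6.18 to -2.82 with 1 line left out.

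Of 8 other genes of sulfide and persulfide handling, 6 were tested, with 1 above and 5 below 0 and a median log2 fold change of -0.12. They ran from *Selenbp1*, a methanethiol oxidase, at -1.999 to *Ccbl1*, a cysteine conjugate lyase, at 0.01. *Selenbp1* was at 3.29, 0.580 and 0.360 CPM in Nf1/p53 dKO and at 0.0963, 0.130 and 0.829 CPM in Nf1/Cdkn2a dKO, so its lines overlapped and line 1 of Nf1/p53 dKO stood apart, and its log2 fold change ran from -3.61 to -0.42 with 1 line left out. Sulfate, the product of sulfite oxidase, is activated and carried by the products of 10 further genes, all tested, with 4 above and 6 below 0 and a median of -0.12. Among these the sulfate carrier genes *Slc26a11* (-0.56) and *Slc26a1* (0.96) were the extremes, the latter at no more than 0.241 CPM in any line.

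Of 6 known regulators of *Slc7a11*, 3 lay above and 3 below 0, with a median log2 fold change of 0.22. *Nfe2l2*, which encodes the oxidant-responsive activator NRF2, was at 129, 122 and 131 CPM in Nf1/p53 dKO lines and at 234, 196 and 270 CPM in Nf1/Cdkn2a dKO lines (log2 fold change 0.87, adjusted p = 0.0512, edgeR). *Atf4*, which encodes the activator of the amino acid response, was at 321, 321 and 453 CPM in Nf1/p53 dKO lines and at 224, 212 and 177 CPM in Nf1/Cdkn2a dKO lines (log2 fold change -0.84, adjusted p = 0.0785, edgeR). The lines of *Nfe2l2* and *Atf4* lay apart in opposite directions without passing the test, and those of *Slc7a11* did not lie apart. Lines lay apart for 3 of the 6 regulators, beside 31.4% of all genes, and nothing is read from this.

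**Figure D5:**
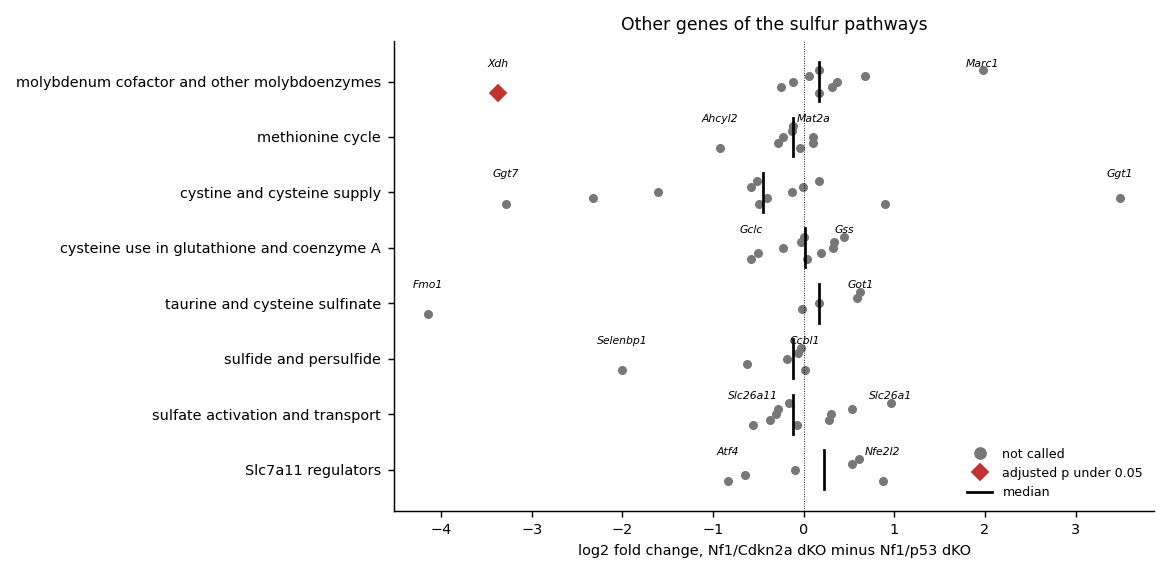
Log2 fold change between genotypes (Nf1/Cdkn2a dKO minus Nf1/p53 dKO) of the 67 tested genes of the 8 pathway lists (points), with the median of each list (black lines) and the extreme genes of each list named. *Xdh*, at -3.37, is the only called gene (red diamond).

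None of the 7 tested genes next to *Suox* on chromosome 10 was called. Of all genes 1.8% were, so nothing is read from the absence of a call among so few. *Rab5b*, a small GTPase gene that lies 3102 bases away, was at 101 ± 16.0 CPM in Nf1/p53 dKO and 134 ± 60.6 CPM in Nf1/Cdkn2a dKO (SD, n = 3 lines; log2 fold change 0.41, adjusted p = 0.486, edgeR). Beyond it lay *Cdk2* (log2 fold change -0.04), *Pmel* (0.58) and *Dgka* (0.51), and on the other side *Gm26876*, *Ikzf4* (-0.32), *Rps26* (0.25) and *Erbb3* (-1.32). The lines of the genotypes lay apart for *Pmel*, as they did for 31.4% of all genes. *Gm26876* had 5 counts in all and was not tested. The adjusted p of the 7 tested neighbors ran from 0.368 for *Erbb3*, which had 268 counts in all, to 0.910 for *Cdk2*.

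The genes whose level followed *Suox* most closely over the 18 cultures were *Ddb1*, a DNA damage-binding protein gene (Pearson r = 0.989 of log2 CPM), *Capn1*, a calpain gene (r = 0.983), *Ercc1*, a DNA repair endonuclease gene (r = 0.981), *Epha5*, an ephrin receptor gene (r = 0.980), and *Mdm2*, a gene of the ubiquitin ligase of p53 (r = 0.979). In all, 256 of 14689 other genes had r above 0.9 and 332 had r below -0.9. The points share 6 lines and 2 genotypes, so any gene that differs between genotypes and little within them has a strong r with *Suox*. The sign of r follows the direction of that difference, and the correlation is a description of these cultures. *Epha5* also varied within Nf1/Cdkn2a dKO, at 20.4 ± 11.0 CPM, against 0.184 ± 0.210 CPM in Nf1/p53 dKO (SD, n = 3 lines).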

How the data were processed

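The 18 libraries, 3 cultures of each of 6 lines, were deposited by the authors as 1 table of raw read counts per gene. Libraries were prepared and sequenced by a company; the submitters' processing notes name CASAVA, STAR 2.5, DESeq2 1.14.1 and GRCm38, and the counting tool, annotation and strandedness are not given in the sources used here. Counts of a line's 3 cultures were summed, scaled by TMM, filtered with filterByExpr (minimum count 10, minimum total 15) and tested with the quasi-likelihood test of edgeR 4.0.16 (R 4.3.3), two-sided, with Benjamini-Hochberg adjustment over 15207 genes. Lines within a genotype were tested in 1 fit over 18 cultures (14690 genes). The fits were also run on simulated independent counts with the spread estimated from these data. Such counts cannot show how far the calls depend on single lines. CPM use TMM-scaled totals; log2 CPM for correlation used a prior count of 2. Coordinates and exon lengths came from GENCODE M21 (GRCm38), in which 34490 of the 35275 genes were found.

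The genes and lists were chosen with earlier results of these data known. Named beside the 10 genes are, in each list, called genes and those with the highest and lowest fold change, the 5 genes most correlated with *Suox*, 4 neighbors on each side, and the edited genes; *Slc3a2*, *Aox1* and *Marc2* were added for their roles. *Marc1* and *Marc2* were matched by identifier. Replicate cultures differed beyond sampling noise (chi-square per degree of freedom 3.5 to 27.1 in 18 pairs), so none was a duplicate. Alternatives were DESeq2 1.42.0, limma 3.58.1 (voom), separate cultures, size factors, other filters, replicate blocks and lines left out. A further cell type marker is not reported here.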

Additional observations from a re-analysis of the deposited data

How the results depend on the processing

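The number of genes called between genotypes (274) moved with the tool, the unit of replication and the lines included: it was 7186 with DESeq2 and 6096 with edgeR on 18 separate cultures, 2173 with limma-voom and the line as random effect, 2060 with DESeq2 on 6 line sums, 0 with the line number as a replicate block (3400 genes had an unadjusted p under 0.05 without the block), and 0 to 172 with 1 line left out, 0 without Nf1/Cdkn2a dKO line 1, 2 without its line 2, 23 without its line 3, and 172, 27 and 107 without Nf1/p53 dKO lines 1, 2 and 3. Listed pathway genes called (1) were 33, 29, 16 and 11 in those first 4 fits, 3 with no filter, 0 with the replicate block and 0 to 2 with 1 line left out. *Suox* was called in 11 of 14 alternatives, *Cth* in 5, *Tst* in 3 and *Mpst* in 2. The 3 without *Suox* were the replicate block and the fits without Nf1/Cdkn2a dKO line 1 or line 2. *Mpst* was called only in the fits on 18 separate cultures, which treat the cultures of a line as independent. The genes were selected on this contrast, so nothing is read from these tallies. With the culture number as a replicate block, 7 and 8 of the 10 genes still differed between the lines of Nf1/p53 dKO and of Nf1/Cdkn2a dKO; with 1 culture number left out, 6 to 7 and 6 to 8 did.

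Directions turned for the log2 fold change of *Cbs* (-0.072 with the replicate block, -0.24 to 0.78 with 1 line left out), *Cdo1* (-0.99 to 0.15), *Ethe1* (-0.11 to 0.21) and *Slc7a11* (-0.12 with limma-voom, -0.058 with the replicate block, -0.41 to 0.70 with 1 line left out), and for the list medians of the methionine cycle (-0.16 to 0.0071), glutathione and coenzyme A (-0.0063 to 0.071) and sulfate (0.067 with the replicate block, -0.21 to 0.11 with 1 line left out). Medians that kept their sign with 1 line left out ran from -0.45 to -0.18 for cysteine supply, 0.032 to 0.28 for molybdenum enzymes, 0.023 to 0.30 for taurine, -0.25 to -0.0012 for sulfide and 0.11 to 0.30 for *Slc7a11* regulators. The cause was not tested. *Suox*, *Cth*, *Tst*, *Mpst*, *Csad* and *Sqor* kept their sign in every alternative. Same-numbered lines came from separate tumors and did not deviate together (correlations -0.133 to -0.0848), nor did same-numbered cultures (median 0.00302, -0.0634 to 0.0883). Counts were lowest for *Cbs*, at most 63 in a line.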
